A study of Mus musculus with 15 samples.

Results

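The interferon-stimulated genes and RNA sensors were 37 mouse genes, chosen by symbol and found in the annotation of the count files, where each matched 1 gene identifier out of 53380 counted features. They were followed by polyA RNA sequencing in cultured mouse T-ALL cells (T cell acute lymphoblastic leukemia) derived from EμSRα-tTA/tet-O-MYC mice on the FVB/N background. In these cells a human MYC transgene sits behind a tetracycline operator and is driven by the tetracycline transactivator tTA, which is itself expressed from the Eμ enhancer and SRα promoter in lymphoid cells, so that doxycycline in the medium turns the transgene off. The 5 groups were mock-treated MYC on cells (0 h) and cells given doxycycline for 2, 4, 8 or 24 h (MYC off), with 3 libraries per group and 15 in all. Whether the cells are a single clone is not stated. Every comparison with 0 h shared the same 3 mock libraries, and no mock library of a later time was analysed here, so time in culture, doxycycline itself and loss of MYC cannot be told apart. It is not stated in the sources used here whether the 3 libraries of a group came from separate cultures, and the p-values therefore reflect just the variation among these libraries.

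Interferons are secreted proteins that bind receptors on the cell surface and, through the kinases JAK1, JAK2 and TYK2, activate STAT transcription factors. STAT complexes that hold STAT2 and IRF9 bind the interferon-stimulated response element, others bind the gamma-activated site, and both switch on a large set of antiviral genes. The RNA sensors RIG-I (Ddx58), MDA5 (Ifih1) and LGP2 (Dhx58) recognize unusual RNA in the cytoplasm and signal through MAVS to the factors that make interferon, and most of the sensors are themselves induced by interferon. MYC is a transcription factor that binds the E-box and is a known antagonist of interferon signaling in several cancers.

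Total counts per library lay between 25852711 and 27102318, with a median of 26672358. Levels per library are given as CPM, the count scaled to a common library total after adjustment of the totals by the trimmed mean of M-values. The MYC transgene, which checks the labels, read 2080, 2020 and 1970 CPM at 0 h and 24.0, 27.1 and 23.4 CPM at 2 h, a log2 fold change of -6.35 ± 0.115 (SE, edgeR adjusted p = 9.5e-15). It lay at 1.23% ± 0.098 of its 0 h mean at 2 h and at 0.163% ± 0.0155 at 24 h (SD, n = 3). All 10 T cell markers examined were expressed, and their summed level was 3450 to 3510 CPM at 0 h and 5810 to 6500 CPM at 24 h. Their 0 h means were uneven, from 3.45 CPM for Cd2 and 5.6 CPM for Cd5 to 1710 CPM for Thy1. One library, replicate 3 at 24 h, stood apart. Its counts differed from its 2 partners by 77.7 and 85.4 times the sampling variance (chi-square per degree of freedom), against 2.81 to 16.5 for every other pair of replicates. Where a result called or a share quoted moves by over 1.5 times without it, both values are given.

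Promoter sequences were examined because the letters bound by these factors are known. RefSeq windows (GRCm38.p6, 250 bases before to 50 bases after the start) were found for 27 of the 37 genes. The core of the interferon-stimulated response element (GAAANNGAAA on either strand) lay in the windows of 11 of these 27 genes (40.7%), against 1079 of all 27025 genes with a window (3.99%). The gamma-activated site core (TTCNNNGAA) lay in 7 of the 27 (25.9%, against 9.55% of all genes) and the E-box (CACGTG) in 1 of them, Trim25 (3.70%, against 8.09% of all genes). Stretches upstream of the start are printed 5′ to 3′ on the gene's strand with the matched letters in capitals. They are shown because their genes went different ways in the time course. Isg15, Ifit1 and Stat2 rose, Bst2 fell, Rsad2 was not called against 0 h, and Ifit3 and Oas3 hold the same core but gave too few counts to test.
Isg15, chr4:156200855-156200916, minus strand, bases -98 to -37 from the start, 3 overlapping matches: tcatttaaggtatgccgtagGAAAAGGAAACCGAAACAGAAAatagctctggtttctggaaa
Ifit1, chr19:34640765-34640833, plus strand, bases -124 to -56, 2 matches: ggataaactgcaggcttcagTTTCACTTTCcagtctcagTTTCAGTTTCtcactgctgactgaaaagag
Ifit3, chr19:34583353-34583436, plus strand, bases -176 to -93, 2 matches: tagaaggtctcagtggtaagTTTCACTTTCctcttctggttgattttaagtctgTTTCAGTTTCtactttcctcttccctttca
Stat2, chr10:128270256-128270305, plus strand, bases -242 to -193, 1 match: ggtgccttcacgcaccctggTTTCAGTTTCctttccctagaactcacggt
Bst2, chr8:71537567-71537622, minus strand, bases -150 to -95, 2 overlapping matches: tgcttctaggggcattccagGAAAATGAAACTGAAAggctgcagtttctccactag
Rsad2, chr12:26456543-26456592, minus strand, bases -140 to -91, 1 match: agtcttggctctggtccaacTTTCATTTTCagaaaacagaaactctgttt
Oas3, chr5:120777705-120777754, minus strand, bases -95 to -46, 1 match: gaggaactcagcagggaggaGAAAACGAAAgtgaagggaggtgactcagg
Of the 7 genes with the gamma-activated site core, Ifit2, Irf1 and Isg20 were higher at 24 h and Bst2 was lower. Ifi35 and Adar were not called at 24 h, and Oas1a was not tested. The next pair shows the gamma-activated site core of Irf1, which rose from 2 h, and the E-box of Trim25, which fell from 2 h.
Irf1, chr11:53769904-53769952, plus strand, bases -110 to -62, 1 match: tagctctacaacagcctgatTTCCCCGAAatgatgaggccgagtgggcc
Trim25, chr11:88999335-88999375, plus strand, bases -68 to -28, 1 match: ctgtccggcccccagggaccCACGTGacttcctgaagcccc
In Bst2 the first response element match overlaps a gamma-activated site core at bases -136 to -128, and no other match overlapped a match of another motif. A match is a description of letters and not of binding. Of the 11 genes with a response element match, 7 could be tested, of which 5 were higher and 1 was lower at 24 h than at 0 h, and 2 of those 5 (Ifit1 and Isg15) passed the count filter only through later times. Of the 16 with a window but no match, 13 could be tested, of which 10 were higher and 1 was lower. Xaf1, among those 10, also passed the count filter only through later times. Of all genes tested, 30.7% were higher and 28.1% lower at 24 h.

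Most of the expressed genes of the set were higher 24 h after MYC was turned off, and 3 were lower than at 0 h at some time. Of the 37 genes, 26 passed the count filter, and 4 of those 26 (Ifit1, Isg15, Usp18 and Xaf1) did so only through later times, so counts are read on the 22 that passed it in every 0 h library. At 2 h, 7 of the 22 were higher and 2 were lower (adjusted p under 0.01 over 14485 genes tested), where 6.60% of all genes tested were higher and 8.59% were lower. The share of all genes called at 2 h depended on single libraries. Without replicate 3 at 24 h it was 11.9% higher and 14.8% lower, with 8 genes of the set higher and 2 lower, and without any 1 library of 0 h or 2 h it was between 4.06% and 4.37% higher and between 5.21% and 5.79% lower. With only these 2 time points in the fit it was 18.3% and 21.0%, with 9 genes of the set higher and 3 lower. At 4 h, 12 were higher and 3 lower, against 18.1% and 19.9% of all genes, or 11.5% and 17.9% without replicate 2 and 11.4% and 17.8% without replicate 3 at 4 h. The counts were 15 higher and 3 lower at 8 h, against 25.3% and 25.1%. By 24 h, 17 of the 22 (77.3%) were higher, against 30.7% of all genes, and 2 (9.09%) were lower, against 28.1%. The median log2 fold change of the 22 was 0.20, 0.63, 1.00 and 1.34 in the order of the times, beside medians of 0.01, 0.08, 0.09 and 0.07 over all genes tested. From 2 to 4 h, 8 of the 22 rose and 2 fell, against 7.72% and 13.0% of all genes. From 4 to 8 h, 10 rose and 1 fell, against 5.73% and 6.97%. Without replicate 3 at 24 h the shares of all genes that rose and fell from 2 to 4 h were 16.5% and 19.8%. From 4 to 8 h they were 11.6% and 14.5% without that library. In bulk RNA a change in the share of cells that express a gene and a change in RNA per cell cannot be told apart.

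**Figure D1:**
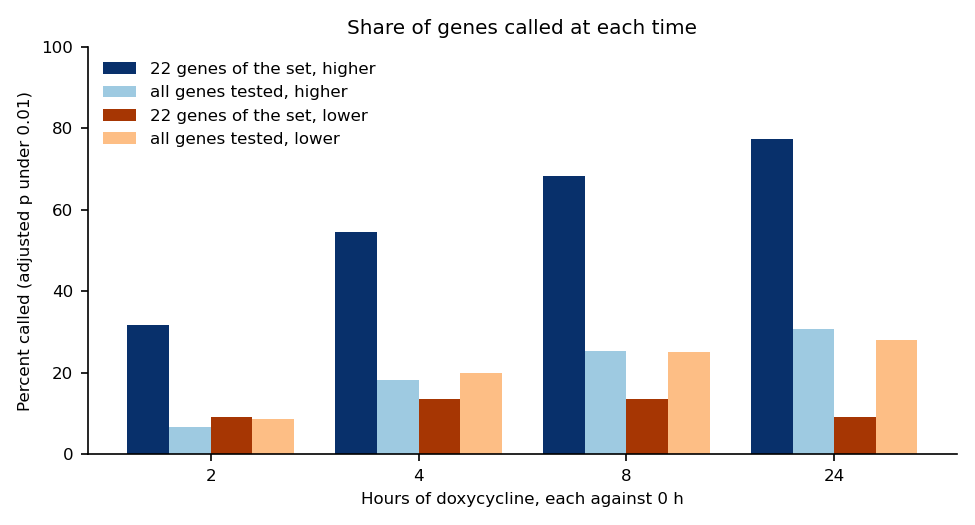
Percent of genes called higher (blue) or lower (orange) at each time against 0 h at an adjusted p under 0.01, for the 22 genes of the set that passed the count filter in every 0 h library (dark bars) and for all 14485 genes tested (light bars). The dark blue bars go from 31.8% at 2 h to 77.3% at 24 h, and the light blue bars from 6.60% to 30.7%.

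With all 26 tested genes counted, 21 were higher and 2 lower at 24 h, and 25 changed at some time in the test over all 5 times, which called 74.2% of all genes. Scaled to library totals instead, 23 of the 26 were higher and 2 lower at 24 h, and the split of all genes at 24 h was 6361 higher and 2855 lower in place of 4443 and 4076. Ifit1 alone missed the test over all times (edgeR adjusted p = 0.0106). The 21 genes that were higher at 24 h did not all reach the threshold at the same time. Stat2, Irf1, Irf7, Ifit2, Samd9l, Herc6 and Parp14 were first called at 2 h. A further 5 were added at 4 h (Ddx58, Zbp1, Gbp2, Parp9 and Ifi27), then 6 at 8 h (Irf9, Dhx58, Ifit1, Isg20, Isg15 and Xaf1), and the last 3 at 24 h (Usp18, Parp12 and Dtx3l). This order also follows the precision of each gene, since a gene with few counts needs a larger change to be called. Without replicate 1 at 2 h only 4 genes were called higher at 2 h. Between 8 and 24 h, 13 of the 26 rose, against 20.8% of all genes, and 2 fell, against 17.3%. One of the 13, Ifi35, had been called lower than 0 h at 8 h. With only these 2 time points in the fit, 3 rose and 1 fell, against 5.57% and 8.20% of all genes.

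**Figure D2:**
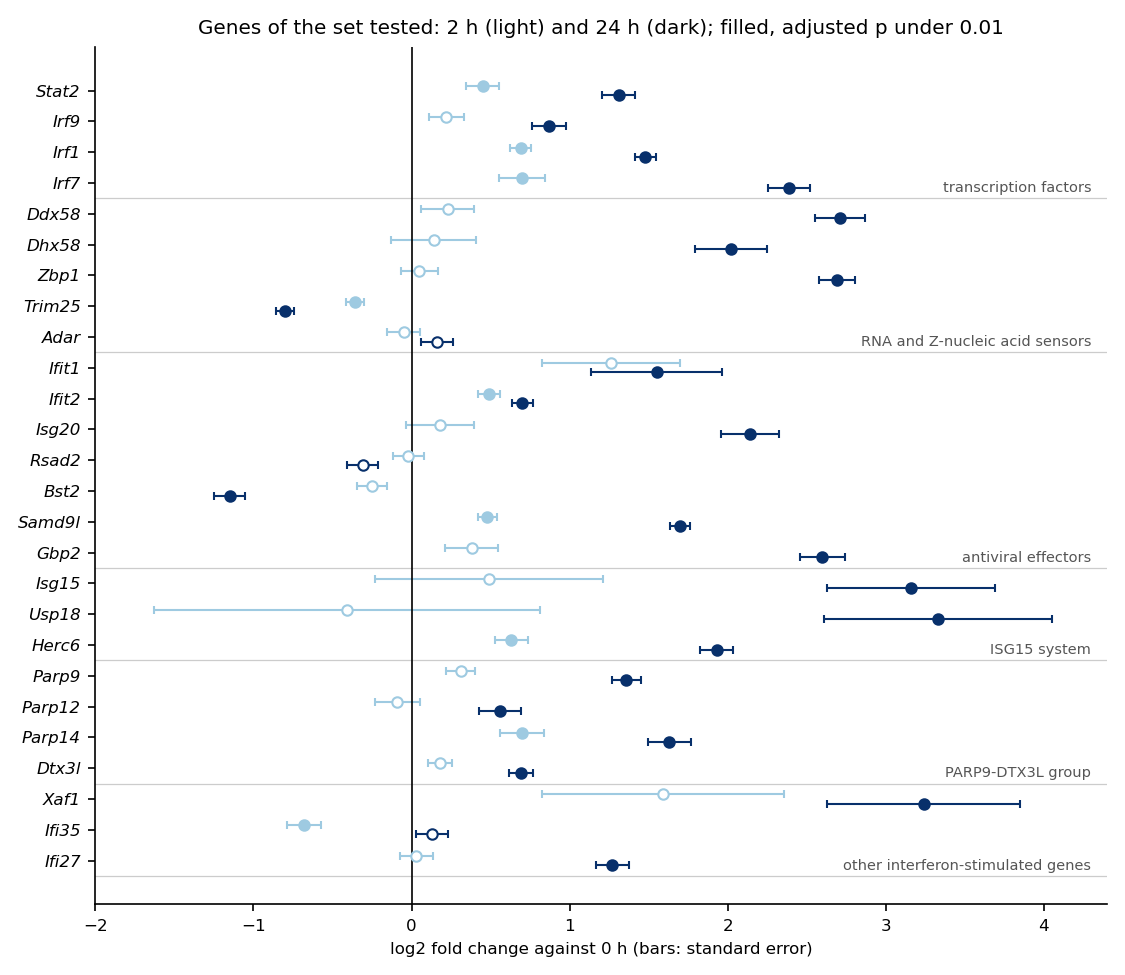
Log2 fold change against 0 h (horizontal axis, bars are the standard error) of the 26 tested genes at 2 h (light) and 24 h (dark), by role, with filled symbols for an adjusted p under 0.01. At 24 h the 4 transcription factors and the 4 genes of the PARP9-DTX3L group lie right of 0, and Trim25 and Bst2 lie left of it.

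The levels of the genes at the start spanned several orders of magnitude. Per transcript length, as TPM in the authors' files (counts divided by length and scaled to a common total), the highest at 0 h were Trim25 at a mean of 82.3 TPM, Bst2 at 57.7 TPM and Ifi27 at 33.4 TPM. At 24 h the order was headed by Ifi27 at 102 TPM, Irf1 at 67.5 TPM, Samd9l at 62.6 TPM and Trim25 at 60.5 TPM. The last 3 of these lay close together and were not compared by a test. TPM is not adjusted by the trimmed mean of M-values, so a higher TPM at 24 h is not by itself a rise. Scaled to library totals, also without that adjustment, the median log2 fold change of all genes at 24 h was 0.35, against 0.07 with it. At the other end, 8 of the 37 genes had 20 counts or fewer over all 15 libraries, and Oas2 and Ifi44 had none at all.

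**Figure D3:**
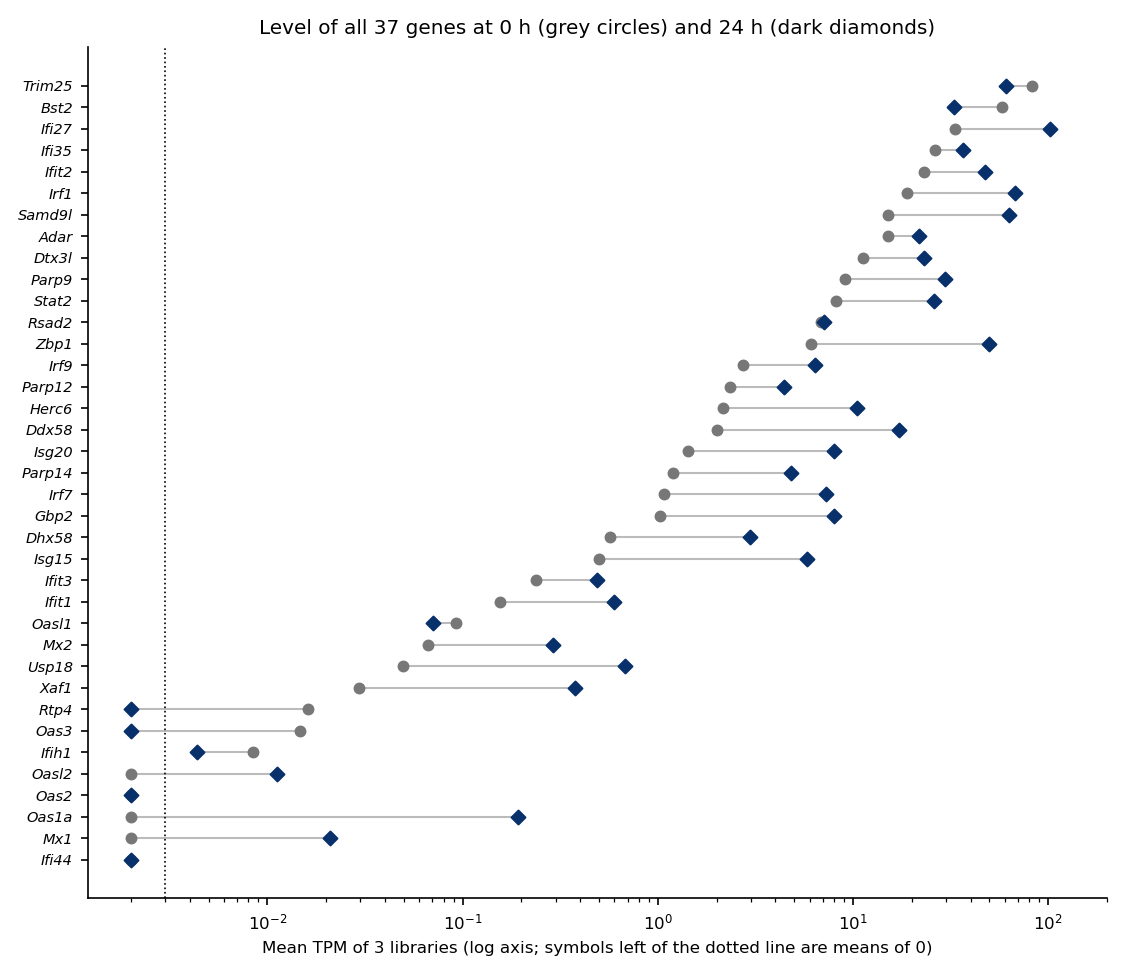
Mean TPM of 3 libraries (horizontal log axis) of all 37 genes at 0 h (grey circles) and 24 h (dark diamonds), ordered by the 0 h level, with means of 0 drawn left of the dotted line. Most genes above 0.1 TPM at 0 h lie further right at 24 h, and Trim25 and Bst2 lie further left. TPM lacks the adjustment used for CPM. Rsad2 (6.86 and 7.09 TPM), Adar (15.1 and 21.7 TPM) and Ifi35 (26.2 and 36.4 TPM) also lie further right but were not called at 24 h.

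All 4 transcription factors were higher at 24 h, Irf1 and Irf7 the most, where 30.7% of all genes tested were higher. Irf1, a factor that is itself induced through the gamma-activated site and activates many interferon-stimulated genes, read 28.2, 28.2 and 30.0 CPM at 0 h, 46.8, 47.3 and 45.6 CPM at 2 h and 51.8, 52.4 and 54.4 CPM at 4 h. Then it read 63.3, 66.9 and 68.9 CPM at 8 h and 81.3, 85.3 and 74.8 CPM at 24 h. Each time lay wholly above the one before. Its log2 fold change against 0 h was 0.69 ± 0.065 at 2 h (SE, edgeR adjusted p = 2.01e-06) and 1.48 ± 0.065 at 24 h (edgeR adjusted p = 1.8e-11), which put it at 162% ± 2.99 and 280% ± 18.4 of its 0 h mean (SD, n = 3). Irf7, the factor that amplifies the making of type I interferon, read 1.56, 1.67 and 1.43 CPM at 0 h, 2.86, 2.42 and 2.28 CPM at 2 h and 3.73, 4.26 and 4.35 CPM at 4 h. It went on to 6.64, 5.97 and 5.41 CPM at 8 h and 7.90, 8.35 and 8.28 CPM at 24 h. Its groups did not overlap either. Relative to 0 h it was higher on the log2 scale by 0.70 ± 0.15 (2 h, edgeR adjusted p = 0.00249), 1.40 ± 0.14 (4 h, 6.24e-07) and 2.39 ± 0.13 (24 h, 2.64e-10). The 2 h call was lost without replicate 1 or 3 at 0 h or replicate 1 at 2 h, with adjusted p up to 0.0167. Exons of Irf7, Irf1, Dhx58, Adar, Gbp2, Usp18 and Ifi35 overlap those of other annotated genes on the opposite strand (Phrf1 for Irf7 and Gm17334 for Irf1), and the sources used here do not say whether counting used strand. Exons of Irf9, Herc6 and Parp14 overlap those of other genes on the same strand (Rnf31 for Irf9), where strand does not separate the reads.

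Stat2 and Irf9, which belong to the complex that binds the response element, rose less. Stat2 read 18.2, 19.5 and 17.6 CPM at 0 h, 25.1, 24.8 and 25.8 CPM at 2 h and 27.4, 29.0 and 25.4 CPM at 4 h. The later values were 30.8, 30.2 and 29.4 CPM at 8 h and 39.7, 42.3 and 55.3 CPM at 24 h. The 2 h and later libraries were all above those at 0 h, the 2 h and 4 h groups overlapped, and the library that stood apart was the highest at 24 h. The log2 fold change was 0.45 ± 0.11 at 2 h (edgeR adjusted p = 0.00527) and 1.31 ± 0.11 at 24 h (2.06e-08), or 1.15 at 24 h without that library. The 2 h call was lost when any 1 library of 0 h or 2 h was left out and with the replicate number as a block, with adjusted p up to 0.0275. Irf9 went from 5.23, 5.33 and 6.21 CPM at 0 h to 7.88, 8.14 and 7.59 CPM at 8 h and 10.3, 9.09 and 11.3 CPM at 24 h, without overlap between these 3 times. Its log2 fold change was 0.49 ± 0.11 at 8 h and 0.87 ± 0.11 at 24 h (edgeR adjusted p = 0.00094 and 2.44e-06).

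Of the 6 genes grouped as RNA and Z-nucleic acid sensors, Ddx58, Zbp1 and Dhx58 rose steeply from 4 h or 8 h, and Ifih1 was hardly detected. Trim25, a ubiquitin ligase, fell, and Adar, an editing enzyme, was not called against 0 h. At 24 h, 3 of the 5 tested were higher and 1 was lower, against 30.7% and 28.1% of all genes tested. Ddx58 encodes RIG-I, which senses RNA with a 5′ triphosphate. It read 5.74, 5.37 and 5.19 CPM at 0 h, 6.94, 6.24 and 5.87 CPM at 2 h and 11.8, 12.4 and 10.4 CPM at 4 h. This became 22.2, 19.4 and 20.3 CPM at 8 h and 29.9, 30.3 and 46.5 CPM at 24 h. Each time lay above the one before, and the highest value was in the library that stood apart. Against 0 h the log2 difference of 0.23 ± 0.17 at 2 h was not called (edgeR adjusted p = 0.377), and those at 4 h (1.09 ± 0.16, 4.04e-05), 8 h (1.92 ± 0.16, 3.77e-08) and 24 h (2.71 ± 0.16, 4.58e-10) were. Without that library the 24 h value was 2.47. Zbp1, a sensor of left-handed Z-form nucleic acids that can start inflammatory cell death, read 7.92, 8.83 and 7.88 CPM at 0 h, 8.92, 7.49 and 9.12 CPM at 2 h and 11.6, 14.1 and 15 CPM at 4 h. Afterwards it read 27.2, 27.0 and 31.0 CPM at 8 h and 54.7, 56.0 and 48.1 CPM at 24 h. The 0 h and 2 h groups overlapped and all later groups stood apart from each other. Its log2 fold change was 0.05 ± 0.12 at 2 h (edgeR adjusted p = 0.807), 0.72 ± 0.11 at 4 h (7.7e-05) and 2.69 ± 0.11 at 24 h (1.01e-11), so that at 24 h it stood at 645% ± 51.1 of its 0 h mean (SD, n = 3).

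Dhx58 encodes LGP2, a relative of RIG-I that regulates the other sensors, and was low throughout. Its libraries read 0.624, 0.875 and 0.633 CPM at 0 h, 2.16, 1.99 and 1.65 CPM at 8 h and 2.82, 2.74 and 3.11 CPM at 24 h, with no overlap between these times, and the log2 fold change was 1.44 ± 0.24 at 8 h and 2.02 ± 0.23 at 24 h (edgeR adjusted p = 7.75e-05 and 1.07e-06). At 4 h it was 0.85 ± 0.25 with an adjusted p of 0.0101, just short of a call, and it was called in 7 of 23 alternative fits. Ifih1, the gene of the long-RNA sensor MDA5, had 10 counts over all 15 libraries, with at most 3 in any 1 library, and was not tested.

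Trim25, a ubiquitin ligase that modifies RIG-I, had the most RNA per length of the genes grouped with the sensors and fell. It read 177, 183 and 181 CPM at 0 h, 135, 145 and 142 CPM at 2 h and 107, 115 and 111 CPM at 4 h. These were followed by 150, 137 and 143 CPM at 8 h and 102, 107 and 103 CPM at 24 h. All later libraries lay below those at 0 h, the 8 h group lay above the 4 h group and the 24 h group below the 8 h group, so the course was not a steady fall. In the order of the times, its log2 fold changes against 0 h were -0.36, -0.70, -0.33 and -0.80, each ± 0.057 (edgeR adjusted p = 0.00025, 6.95e-08, 0.000109 and 6.03e-09). With upper-quartile scaling the 8 h value was -0.17 and missed the threshold (adjusted p = 0.0149), and on library totals the 24 h value was -0.52. Adar, the editing enzyme that marks double-stranded RNA as self, read 48.0, 46.2 and 45.8 CPM at 0 h, 42.1, 38.9 and 35.0 CPM at 8 h and 46.5, 47.9 and 61.9 CPM at 24 h. The 0 h and 24 h groups overlapped, and the log2 fold change at 24 h was 0.16 ± 0.10 (edgeR adjusted p = 0.182), 0.02 without the library that stood apart and 0.44 on library totals, where it was called (0.00263). Between 8 and 24 h Adar rose by 0.43 ± 0.10 on the log2 scale (edgeR adjusted p = 0.00285), or by 0.29 without that library.

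**Figure D4:**
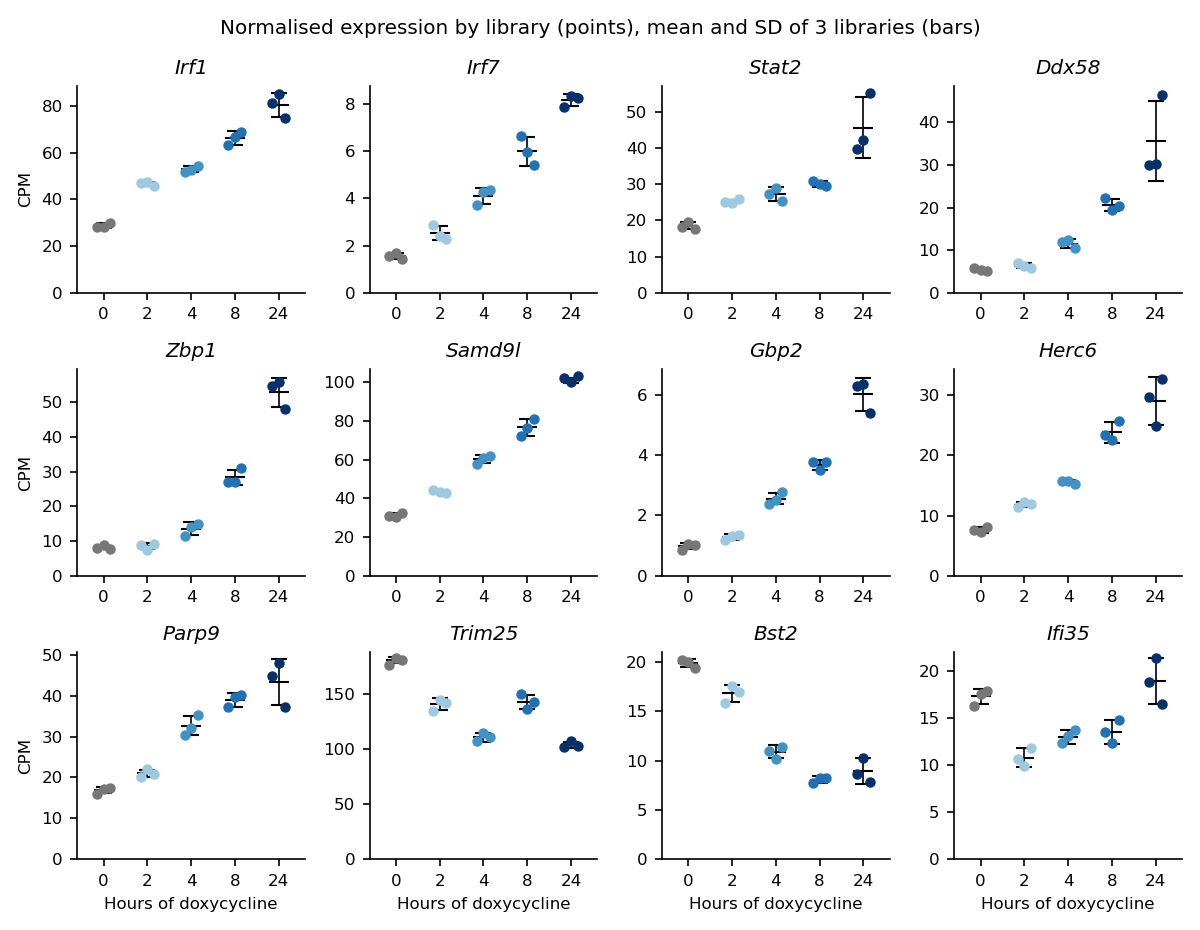
CPM in each of 15 libraries (points) with the mean and SD of 3 libraries (bars) at 0, 2, 4, 8 and 24 h of doxycycline for 12 genes. Irf1, Irf7, Ddx58, Zbp1, Samd9l, Gbp2 and Herc6 rise through the course, Trim25 and Bst2 fall, and Ifi35 falls at 2 h and overlaps the 0 h libraries at 24 h.

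The OAS family, enzymes that sense double-stranded RNA and answer with a small nucleotide messenger, were hardly detected. Oas2 had 0 counts in all 15 libraries, which allows up to 3 counts or 0.111 to 0.116 CPM per library. Oasl2 had 3 counts in all, Oas3 had 4, Oas1a had 17 and Oasl1 had 63, and none reached the filter at any time. Oas1a was listed with 0 counts in all 6 libraries at 0 h and 2 h, 3 counts at 4 h, 4 counts at 8 h and 10 counts at 24 h, too few for a test. Reads of Oas1a may be shared with its near-identical copies, and how such reads were counted is not stated. Oas2, Oas3 and Oas1a lie within 177 kb of chromosome 5.

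Among the antiviral effectors, Samd9l, Gbp2, Isg20 and Ifit2 rose, Bst2 fell and Rsad2 was not called against 0 h. Samd9l, an inhibitor of protein synthesis in infected cells, read 31.1, 30.3 and 32.4 CPM at 0 h, 44.4, 43.1 and 42.9 CPM at 2 h and 57.7, 60.9 and 61.7 CPM at 4 h. It continued to 72.1, 76.4 and 81.2 CPM at 8 h and 102, 99.9 and 103 CPM at 24 h. No library of one time overlapped those of another. In the order of the times, Samd9l was higher than at 0 h by 0.48 ± 0.061, 0.94 ± 0.061, 1.29 ± 0.061 and 1.70 ± 0.062 on the log2 scale (edgeR adjusted p = 4.11e-05, 4.6e-09, 6.14e-11 and 2.15e-12), called in all 23 alternative fits at each time. Gbp2, a guanylate-binding GTPase that attacks the membranes around intracellular pathogens, read 0.858, 1.07 and 1.03 CPM at 0 h, 1.18, 1.33 and 1.35 CPM at 2 h and 2.38, 2.52 and 2.77 CPM at 4 h. The last values were 3.78, 3.49 and 3.76 CPM at 8 h and 6.29, 6.35 and 5.38 CPM at 24 h. The groups did not overlap, yet the 2 h value of 0.38 ± 0.17 was not called (edgeR adjusted p = 0.204). The 4 h and 24 h values were 1.37 ± 0.16 and 2.60 ± 0.14 (edgeR adjusted p = 2.59e-06 and 2.64e-10). Isg20, an RNA exonuclease, read 1.09, 0.994 and 0.95 CPM at 0 h, 2.79, 3.04 and 3.11 CPM at 8 h and 5.41, 4.16 and 3.84 CPM at 24 h, without overlap between these times, a log2 fold change of 2.14 ± 0.18 at 24 h (edgeR adjusted p = 4.53e-08).

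The 3 Ifit genes, whose proteins bind viral RNA caps and ends, lie within 99.3 kb of chromosome 19 and differed in level by orders of magnitude. Ifit2 was the expressed one, at a mean of 23.2 TPM at 0 h against 0.238 TPM for Ifit3 and 0.156 TPM for Ifit1. Ifit2 read 35.6, 34.2 and 34.1 CPM at 0 h, 47.4, 46.5 and 52.3 CPM at 2 h and 54.8, 54.9 and 56.9 CPM at 4 h. Then it read 64.7, 62.3 and 64.5 CPM at 8 h and 60.1, 55.9 and 52.5 CPM at 24 h. It was highest at 8 h, and all later groups lay above 0 h. The log2 difference from 0 h was 0.49 ± 0.067 (2 h, edgeR adjusted p = 7e-05), 0.88 ± 0.067 (8 h, 1.61e-08) and 0.70 ± 0.067 (24 h, 1.76e-07). Ifit1 had 3, 4 and 5 counts at 0 h, 12, 11 and 7 counts at 2 h, 7, 8 and 10 counts at 4 h, 14, 9 and 20 counts at 8 h and 11, 14 and 17 counts at 24 h. All later libraries were above the 0 h libraries, and the call at 24 h (log2 fold change 1.55 ± 0.41, edgeR adjusted p = 0.00364) was lost without the library that stood apart (0.0177), without replicate 1 or 2 at 0 h, without the count filter and in DESeq2 (0.0109). Ifit3 had between 2 and 13 counts per library and was not tested, and its reads may be shared with the near-identical Ifit3b.

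Bst2 encodes tetherin, which holds budding virus at the cell surface. It read 20.2, 20 and 19.4 CPM at 0 h, 15.8, 17.6 and 17.0 CPM at 2 h and 11, 10.2 and 11.4 CPM at 4 h. It went on to 7.70, 8.25 and 8.25 CPM at 8 h and 8.64, 10.3 and 7.82 CPM at 24 h. All later libraries lay below all 0 h libraries, and the 8 h and 24 h groups overlapped. The log2 fold change was -0.25 ± 0.094 at 2 h, which was not called (edgeR adjusted p = 0.071). The later values of -0.87 ± 0.096 (4 h), -1.30 ± 0.098 (8 h) and -1.15 ± 0.097 (24 h) were called (edgeR adjusted p = 1.98e-06, 1.49e-08 and 3.64e-08). Rsad2, the gene of viperin, an enzyme that makes a chain-terminating nucleotide, read 11.1, 10.3 and 12.6 CPM at 0 h, 12.0, 11.9 and 12.5 CPM at 8 h and 9.01, 8.52 and 9.89 CPM at 24 h. The 24 h libraries were below those at 0 h and 8 h. Against 0 h the log2 fold change was -0.31 ± 0.097 with an edgeR adjusted p of 0.0102, on the edge of the threshold, 12 of 23 alternative fits called it lower, and on library totals it was -0.03 (0.776). Against 8 h it fell by 0.41 ± 0.097 on the log2 scale (edgeR adjusted p = 0.00269), a call that was lost on library totals (-0.24, 0.0556). Of the Mx GTPases, which block viral replication, Mx1 had 6 counts and Mx2, annotated as a polymorphic pseudogene, had 66 counts over 15 libraries, 7 of them at 0 h and 28 at 24 h, and neither was tested.

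The ISG15 system attaches a ubiquitin-like protein to other proteins. Herc6, the mouse ligase of this pathway, was its expressed gene and read 7.53, 7.20 and 8.19 CPM at 0 h, 11.4, 12.2 and 11.9 CPM at 2 h and 15.8, 15.8 and 15.3 CPM at 4 h. The later values were 23.3, 22.5 and 25.7 CPM at 8 h and 29.7, 24.8 and 32.7 CPM at 24 h. Only the 8 h and 24 h groups overlapped. In the order of the times, Herc6 was higher than at 0 h by 0.63 ± 0.105, 1.03 ± 0.103, 1.64 ± 0.102 and 1.93 ± 0.102 on the log2 scale (edgeR adjusted p = 0.00037, 6.78e-07, 1.6e-09 and 1.54e-10). Isg15, the ubiquitin-like protein itself, had 2, 4 and 5 counts at 0 h, 7, 4 and 5 counts at 2 h, 2, 2 and 10 counts at 4 h, 10, 27 and 14 counts at 8 h and 38, 53 and 28 counts at 24 h. The 24 h libraries lay above those at 0, 2 and 4 h and, scaled to depth, overlapped the 8 h libraries, with a log2 fold change of 3.16 ± 0.53 (edgeR adjusted p = 7.19e-05). The earlier call at 8 h (2.11 ± 0.59, 0.00588) was lost without any 1 of the 0 h libraries or without replicate 2 or 3 at 8 h. Usp18, the protease that removes ISG15 and dampens interferon signaling, had 0, 2 and 2 counts at 0 h and 16, 23 and 12 counts at 24 h, with a log2 fold change of 3.33 ± 0.72 (edgeR adjusted p = 0.00072). Both genes passed the filter only through later times, and even at 24 h Isg15 stood at 5.83 TPM and Usp18 at 0.676 TPM.

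In the PARP9-DTX3L group, whose proteins attach ADP-ribose or ubiquitin in the interferon and DNA damage responses, all 4 genes were higher at 24 h. Of all genes tested, 30.7% were higher at that time. Parp14, a STAT6 cofactor, read 4.14, 4.33 and 4.35 CPM at 0 h, 7.93, 6.05 and 6.92 CPM at 2 h and 6.95, 7.44 and 7.80 CPM at 4 h. This became 8.65, 6.27 and 7.52 CPM at 8 h and 12.8, 12.1 and 15 CPM at 24 h. The 2, 4 and 8 h groups overlapped on a plateau between the 0 h and 24 h groups. Relative to 0 h the log2 values were 0.70 ± 0.14 (2 h, edgeR adjusted p = 0.00162), 0.81 ± 0.139 (8 h, 0.000118) and 1.63 ± 0.135 (24 h, 2.93e-08). The 2 h call was lost without replicate 1 at 2 h (0.0117). Parp9 read 16, 17.1 and 17.5 CPM at 0 h, 20.2, 22 and 20.8 CPM at 2 h and 30.5, 32.2 and 35.3 CPM at 4 h. Afterwards it read 37.2, 39.7 and 40.2 CPM at 8 h and 44.8, 48.1 and 37.2 CPM at 24 h. Only the 8 h and 24 h groups overlapped, and the log2 fold change was 0.95 ± 0.0935 at 4 h and 1.36 ± 0.093 at 24 h (edgeR adjusted p = 5.48e-07 and 3.4e-09). Dtx3l, the ubiquitin ligase that partners PARP9, read 24.1, 23.9 and 25.4 CPM at 0 h, 27.5, 27.7 and 26.4 CPM at 4 h, 28.2, 29.9 and 27.8 CPM at 8 h and 36.3, 37.7 and 44.2 CPM at 24 h. All groups lay above 0 h but were called at 24 h and not before (0.69 ± 0.076, edgeR adjusted p = 8.15e-07). Parp12 was 0.56 ± 0.13 higher on the log2 scale at 24 h (edgeR adjusted p = 0.00162), a call lost without replicate 1 at 0 h and with only these 2 time points in the fit (adjusted p up to 0.0116). Parp14, Dtx3l and Parp9 lie within 140 kb of chromosome 16, and Dtx3l and Parp9 point away from each other and overlap by 682 bases, where unstranded counting could not tell their reads apart.

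Of the remaining genes, Ifi27, a mitochondrial protein induced by interferon, went from 17.2, 19.6 and 19.2 CPM at 0 h to 23.7, 26.9 and 27.8 CPM at 4 h, 38.1, 42.2 and 41.7 CPM at 8 h and 47.1, 49.6 and 38.7 CPM at 24 h. The 8 h and 24 h groups overlapped and both lay above 0 h, with a log2 fold change of 1.12 ± 0.10 at 8 h and 1.27 ± 0.10 at 24 h (edgeR adjusted p = 1.59e-07 and 2.61e-08). Xaf1, a promoter of apoptosis, had 0, 1 and 3 counts at 0 h and 22, 16 and 10 counts at 24 h (log2 fold change 3.24 ± 0.61, edgeR adjusted p = 0.000212). Its call at 8 h (2.35 ± 0.689, 0.00779) held in 8 of 23 alternative fits. Ifi35, a leucine zipper protein that binds NMI, read 16.3, 17.6 and 17.9 CPM at 0 h, 10.6, 9.87 and 11.8 CPM at 2 h and 12.3, 13.1 and 13.7 CPM at 4 h. These were followed by 13.5, 12.3 and 14.8 CPM at 8 h and 18.8, 21.4 and 16.5 CPM at 24 h. The 2, 4 and 8 h groups lay below 0 h, and the 24 h group overlapped it. At 2 h the log2 fold change was -0.68 ± 0.107 (edgeR adjusted p = 0.000238). At 8 h the log2 fold change was -0.35 ± 0.105 (edgeR adjusted p = 0.00937), a call that held in 12 of 23 alternative fits. At 24 h it was 0.13 ± 0.103 (edgeR adjusted p = 0.282), or 0.40 on library totals, where it was called (0.00162). Rtp4 had 2 counts and Ifi44 none in 15 libraries.

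Upstream of these genes, none of the 10 interferon genes examined had more than 2 counts in all, whereas most of the receptor genes tested rose. Of these 10 (Ifnb1, Ifng, Ifne, Ifnk, Ifnl2, Ifnl3, Ifna1, Ifna2, Ifna4 and Ifna5), 9 had 0 counts in every library and Ifnk had 2 counts in all, each 0 allowing up to 3 counts per library. Of 6 receptor genes, 5 were tested, and 4 (80%) were higher at 24 h, against 30.7% of all genes (median log2 fold change 0.49, against 0.07 over all genes). This list and those below were not restricted to genes that passed the count filter at 0 h. Their shares called higher may thus include genes that passed only through later times. Ifngr1, the ligand-binding chain for interferon gamma, read 48.5, 49.2 and 52.5 CPM at 0 h and 220, 211 and 177 CPM at 24 h, without overlap, a log2 fold change of 2.02 ± 0.090 (edgeR adjusted p = 2.22e-11). Ifnar1, a chain of the type I receptor, read 38.2, 37.8 and 42.5 CPM at 0 h and 60.5, 58.0 and 68.6 CPM at 24 h, also without overlap, and was 0.66 ± 0.075 higher on the log2 scale (edgeR adjusted p = 1.3e-06). Ifnar2 and Ifngr2 were 0.47 ± 0.057 and 0.49 ± 0.080 higher at 24 h (edgeR adjusted p = 2.11e-06 and 5.31e-05).

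In JAK-STAT and IRF signaling, 16 of 18 genes were tested. At 24 h, 9 (56.2%) were higher and 1 (6.25%) was lower, against 30.7% and 28.1% of all genes (median log2 fold change 0.54, against 0.07). On library totals 14 were higher, where 43.9% of all genes were higher. Jak1 and Jak2 were 0.96 ± 0.073 and 0.82 ± 0.079 higher at 24 h (edgeR adjusted p = 1.26e-08 and 1.87e-07), and Irf2, a mostly repressive factor, was 0.93 ± 0.11 higher (1.47e-06). Socs3, a feedback inhibitor of cytokine receptors, went from 4, 4 and 5 counts at 0 h to 126, 121 and 221 counts at 24 h, a log2 fold change of 4.90 ± 0.34 (edgeR adjusted p = 3.4e-09), or 4.57 without the library that stood apart. Socs3 passed the count filter only through later times. The gene that fell was Irf5, at -0.71 ± 0.076 (edgeR adjusted p = 6.11e-07).

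**Figure D5:**
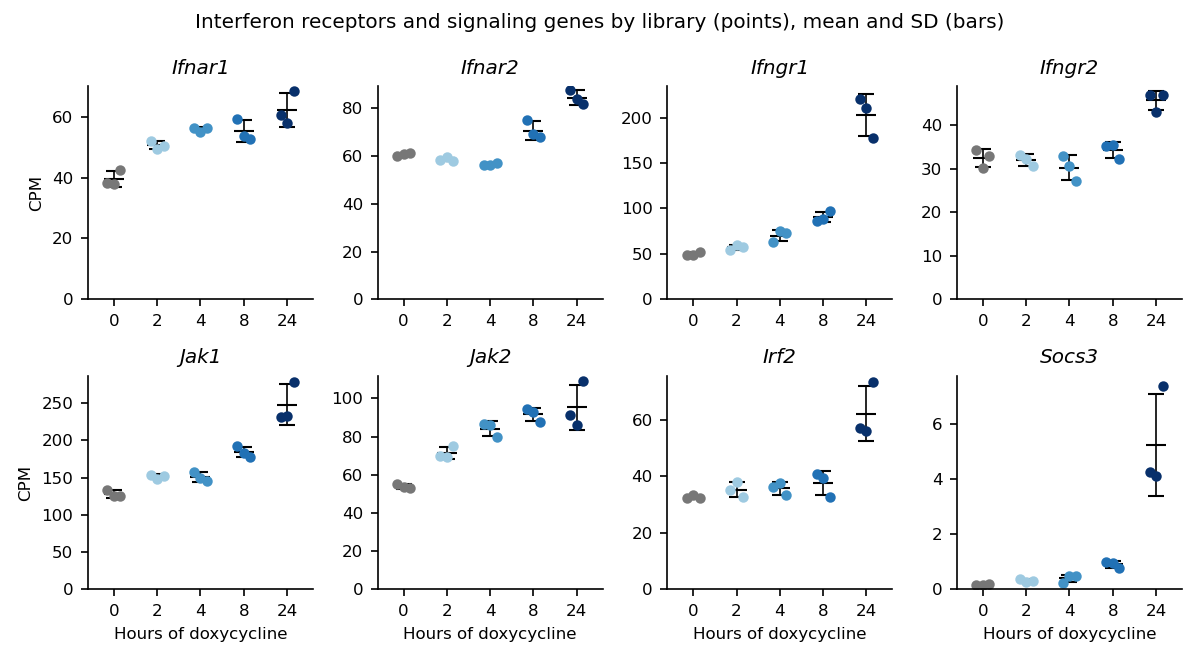
CPM in each of 15 libraries (points) with the mean and SD of 3 libraries (bars) at 0, 2, 4, 8 and 24 h of doxycycline for 4 interferon receptor chains and 4 signaling genes. Ifngr1 at 24 h lies above all earlier libraries, at 177 to 220 CPM.

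Of 24 genes of adaptors and kinases that carry the sensors' signal, 18 were tested. At 24 h, 6 (33.3%) were higher and 5 (27.8%) lower, close to the 30.7% and 28.1% of all genes (median log2 fold change 0.13, against 0.07 over all genes). On library totals 8 were higher and 3 lower, where 43.9% of all genes were higher and 19.7% lower. Tmem173, which encodes STING, read 6.59, 7.16 and 7.52 CPM at 0 h, 12.5, 12.3 and 10.7 CPM at 2 h and 18.8, 18.4 and 21.4 CPM at 24 h, a log2 fold change of 1.46 ± 0.11 at 24 h (edgeR adjusted p = 9.36e-09). Nlrc5, the activator of MHC class I genes, went from 1, 2 and 4 counts to 15 counts in each library and passed the count filter only through later times. Mavs, the adaptor of RIG-I and MDA5, read 36.2, 35.6 and 32.7 CPM at 0 h and 18.3, 18.8 and 24.1 CPM at 24 h, all lower, a log2 fold change of -0.77 ± 0.12 (edgeR adjusted p = 3.01e-05). The other 4 that fell were Irak1, Nlrx1, Traf3 and Rnf125, and on library totals Traf3 (-0.45, edgeR adjusted p = 0.075) and Rnf125 (-0.07, 0.396) were no longer called. Traf3 read 14.7 and 16.4 CPM in 2 libraries at 24 h and 32.3 CPM in the library that stood apart, against 34.6 to 35.8 CPM at 0 h, and its log2 fold change was -0.73, or -1.17 without that library.

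Of 13 genes that clear or edit nucleic acids, 12 were tested. At 24 h, 4 (33.3%) were higher and 6 (50%) lower, against 30.7% and 28.1% of all genes (median log2 fold change -0.31). On library totals 4 were higher and 5 lower, against 43.9% and 19.7% of all genes. Adarb1, another editing enzyme, read 17.6, 18.0 and 16.4 CPM at 0 h and 1.61, 2.20 and 3.14 CPM at 24 h, a log2 fold change of -2.90 ± 0.19 (edgeR adjusted p = 1.85e-09). Supv3l1, the mitochondrial RNA helicase, and Ttc37, a part of the cytoplasmic SKI complex for RNA decay, were at -1.45 ± 0.081 and -1.27 ± 0.091 (edgeR adjusted p = 3.19e-10 and 5.79e-09). Of 61 further interferon-stimulated genes outside the 37, 43 were tested. At 24 h, 34 (79.1%) were higher and 3 (6.98%) lower, against 30.7% and 28.1% of all genes (median log2 fold change 0.92). Genes that passed the count filter only through later times were not set aside here. On library totals 35 were higher and 1 lower, where 43.9% of all genes were higher and 19.7% lower. Gbp4, a relative of Gbp2, read 8.97, 7.12 and 9.38 CPM at 0 h and 50.7, 51.9 and 48.2 CPM at 24 h, without overlap (2.57 ± 0.11, edgeR adjusted p = 1.03e-11). Ube2l6, the conjugating enzyme for ISG15, and Slfn2 were 3.28 ± 0.40 and 3.04 ± 0.32 higher (edgeR adjusted p = 2.55e-06 and 4.65e-07). The 3 that fell were Lgals3bp, Shisa5 and Apobec3, of which Lgals3bp (-1.34 ± 0.13, edgeR adjusted p = 1.38e-07) was also called on library totals.

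Markers of other cells were low but not flat. Of 10 macrophage and dendritic cell markers, Lyz2, Cd14 and Siglech had 0 counts in every library and 8 stayed under 1 CPM throughout, while the summed level went from between 9.86 and 12.1 CPM at 0 h to between 24.5 and 29.8 CPM at 24 h, with the 2 expressed markers moving apart. Itgam had a mean of 2.58 CPM at 0 h and reached 20.6 CPM at 24 h (log2 fold change 3.00, edgeR adjusted p = 2.59e-11). Csf1r had a mean of 8.15 CPM at 0 h, was lower at 8 h with 4.53 CPM (log2 fold change -0.84, edgeR adjusted p = 0.00072) and had 5.82 CPM at 24 h, which was not called (-0.49, 0.0206). The 5 B cell, 5 NK cell and 7 fibroblast and erythroid markers each summed to less than 1 CPM in every library. The part of these signals in the rise of the interferon-stimulated genes was not tested.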

How the data were processed

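PolyA RNA of 15 libraries was sequenced, and the authors deposited, for each library, a table of raw read counts per gene with TPM, FPKM, reads per kilobase (a length-scaled signal) and a fraction of the library per gene. Listed in the notes of the submitters on processing are the build mm10 and the tools featureCounts, STAR 2.5.4b and cutadapt 1.16. The strand and multi-mapping settings of the counting are not stated in the sources. Gene names and positions came from the GENCODE annotation of GRCm38 (53274 of 53379 mouse identifiers matched) and promoters from RefSeq.

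The counts as deposited were fitted with edgeR 4.0.16 (R 4.3.3): filterByExpr on the 5 groups with its minimum count of 10 (0.375 CPM at the median library size), TMM factors, and the quasi-likelihood test of each time against 0 h, of neighbouring times and of any time, all 15 libraries in 1 fit without a block. Benjamini-Hochberg adjustment ran over 14485 genes, and genes were called at 0.01. The SE is the log2 fold change over the square root of F. The deposited TPM served for levels between genes, and the deposited FPKM values, length-scaled signal and fractions were not tested. Fits were tested on simulated data. Alternatives were DESeq2 1.42.0, other scalings and filters, only the 2 time points compared, the replicate number as a block, other thresholds and each library left out. Intervals and limits from a count of 0 cover counting error only.

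The 37 genes and all lists were chosen with earlier results of these data known. Any of the 37 and cell type markers could be named, and per list and time up to 4 genes with the largest change among those called, or any gene of a list with 5 or fewer called. Beyond this rule, Irf5, Irak1, Mavs, Nlrx1, Traf3, Rnf125, Lgals3bp, Shisa5 and Apobec3 were named after their values were seen.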

Additional observations from a re-analysis of the deposited data

Results flagged for a closer look

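Genes of the set that had changed one way against 0 h and then moved the other way in a later step were looked at again. Trim25 was lower at 4 h than at 0 h (log2 fold change -0.70, edgeR adjusted p = 6.95e-08) and then rose between 4 and 8 h by 0.36 ± 0.057 on the log2 scale (edgeR adjusted p = 0.000301, called in 23 of 23 alternative fits), in all 3 libraries, before it fell again by 0.46 ± 0.057 from 8 to 24 h (edgeR adjusted p = 1.23e-05). Ifi35 was lower at 2, 4 and 8 h than at 0 h and rose between 8 and 24 h by 0.48 ± 0.10 (edgeR adjusted p = 0.00148), or by 0.57 without replicate 3 at 24 h, and the call was lost in 2 of 23 alternative fits, without replicate 2 at 8 h and with only the 2 time points in the fit.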

How the results depend on the processing

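Of 104 calls of single genes of the set (7 comparisons), none changed sign in any alternative, 104 held with DESeq2-type size factors in edgeR and 101 each in DESeq2 and on library totals. The fewest held with only the 2 time points compared (89, with 13 lost) and without the count filter (95, with 9 lost), and between 2 and 13 were lost when 1 library was left out, the most without replicate 2 or 3 at 8 h. The counts that follow are over all 26 tested genes. With a log2 fold change beyond 1 also required, 0 genes were higher and 0 lower at 2 h, 4 higher and 0 lower for 4 h, 14 higher and 1 lower for 8 h, 17 higher and 1 lower for 24 h, and 0 and 0 from 8 to 24 h. In the same order, the shares of all genes were 0.573% and 0.967%, 3.11% and 6.99%, 8.82% and 10.2%, 14.7% and 12.3%, and 6.48% and 5.04%. With upper-quartile factors 1 was lower at 8 h, where 19.7% of all genes were lower. Between 8 and 24 h, 3 rose and 1 fell with only these 2 time points in the fit, and 1 fell on library totals. On library totals the median log2 fold change of all genes at 24 h was 0.35 rather than 0.07. Relative to that median Apobec3, at 0.01 there, lay lower. Leaving out 1 library gave 4 to 8 genes higher and 2 to 2 lower at 2 h, against 4.06% to 11.9% and 5.21% to 14.8% of all genes. The ranges were 11 to 13 and 2 to 4 for 4 h, 15 to 19 and 2 to 4 for 8 h, 19 to 21 and 2 to 3 for 24 h and 24 to 25 for any time. Over all genes the shares were 11.4% to 26.5% and 16.8% to 24.8% for 4 h, and 18.9% to 31.8% and 21.7% to 29.6% for 8 h. For 24 h those shares were 26.1% to 32.0% and 25.4% to 30.7%. From 8 to 24 h the counts were 9 to 13 and 1 to 2, against 14.7% to 21.8% and 12.5% to 17.9% of all genes. Rsad2 was the fall lost, without replicate 3 at 8 h or replicate 2 at 24 h. The lowest count at 2 h, 4, was without replicate 1 at 2 h. Whether replicate numbers pair the libraries was not settled. Same-numbered libraries of different times had deviations correlated at -0.31 to 0.21 (median 0.03, 30 pairs). Other-numbered libraries had them at -0.23 to 0.31 (median -0.01, 60 pairs). The lowest same-numbered value was between the libraries numbered 3 at 8 and 24 h. Most same-numbered pairs without a 24 h library were weakly positive. With the replicate number as a block, 6 genes were higher and 2 lower for 2 h, 12 and 3 for 4 h, 17 and 2 for 8 h, 21 and 3 for 24 h, 12 and 2 from 8 to 24 h, and 24 for any time. Of all genes, 5.72% and 7.34% were called for 2 h, 16.4% and 18.9% for 4 h and 24.1% and 24.1% for 8 h. For 24 h it was 29.6% and 27.3%, and from 8 to 24 h 18.6% and 15.7%. Where values moved the cause was not tested. The 11 of the 37 that were not tested did not pass the count filter, set at 0.375 CPM at the median library size. Whether they changed is therefore not known.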
